A study of Mus musculus with 13 samples.

Results

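The 3 WT ovaries are the normal tissue of the series, and the account below is of what their RNA consisted of and of how far one normal ovary differed from another. They were taken by their titles (WT 1, WT 2 and WT 3) and make up 3 of the 13 samples. The other 10 samples are MP tumors, which arose in ovaries electroporated to disrupt Trp53 and overexpress MYC, and they enter no comparison here. The ovaries came from non-treated C57BL/6 mice of WT genotype with no transgene or engineered lesion, and the protocol text shared by all samples gives female mice of 8 to 12 wk. The labels number the ovaries as replicates without saying whether each came from a separate mouse, and the estrous stage and the presence of any oviduct in the dissection are not given in the sources used here.

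The ovary is a mixed organ. Follicles hold an oocyte surrounded by granulosa cells, which make inhibin, anti-Mullerian hormone and estradiol, and by theca cells, which supply the androgen that granulosa cells convert. After ovulation the follicle wall becomes a corpus luteum, a gland that makes progesterone from cholesterol and is later broken down, and all of these lie in a stroma of fibroblasts, vessels, smooth muscle and resident macrophages. The share of each structure in the ovary changes over the estrous cycle.

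RNA abundance was given as TPM (transcript abundance, a read count per base of gene scaled to a fixed total in every library), for 53465 genes. Reads worked back from the table came to 31445004 to 64013840 per ovary, and a single read in a gene of 1 kb amounted to 0.0513 to 0.109 TPM. In every sentence below that lists 3 values, they are those of WT ovaries 1, 2 and 3 in that order. Genes with a TPM of at least 1 numbered 15916, 15552 and 15383. The spread of a gene was taken as the SD over the 3 ovaries of log2(TPM + 1), a scale that understates differences of genes at low TPM, in the 10095 genes with a mean TPM of at least 10. With 1 group of 3 there was no contrast to test, and all values are descriptive.

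The label of ovary held against its defining markers. Cyp11a1, the enzyme that cleaves the cholesterol side chain (ENSMUSG00000032323, chromosome 9 from 58006411 to 58027023, GRCm38), was at 6487, 6957 and 6539 TPM. Star, which delivers cholesterol to the inner mitochondrial membrane (chromosome 8 from 25806555 to 25815982), was at 2506, 1684 and 1688 TPM. Inha, the alpha subunit of inhibin made by granulosa cells (chromosome 1 from 75507077 to 75510366), was at 3225, 5290 and 2810.2 TPM. Zp3, a protein of the zona pellucida around the oocyte (chromosome 5 from 135980099 to 135988624), was at 86.8, 106 and 77.1 TPM. Every ovary therefore held steroidogenic, granulosa and oocyte RNA. Of 9 genes of the neighboring oviduct, 7 had a mean TPM below 10, with Ovgp1, the secreted oviductal glycoprotein, at 0.454, 1.37 and 0.461 TPM and Foxj1, the regulator of motile cilia, at 0.18, 0.207 and 0.254 TPM. The other 2 were Tppp3, at 20.7, 20.97 and 12.2 TPM, and Rsph1, at 9.43, 9.89 and 12.3 TPM.

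Steroid hormone synthesis was among the most abundant programs of the ovary. The gene of highest mean TPM was mt-Co1 of the mitochondrial genome, a subunit of cytochrome c oxidase, at 17343, 17906 and 18904 TPM, and the next was Hsd3b1, the dehydrogenase that turns pregnenolone into progesterone (chromosome 3 from 98852194 to 98859794), at 15793, 18337 and 16540.1 TPM. Among the 20 genes of highest mean, Cyp11a1, Inha and Akr1c18 were the other genes known for ovarian function. The rest were 7 genes of the mitochondrial genome (mt-Co1, mt-Cytb, mt-Nd1, mt-Nd2, mt-Nd4, mt-Nd5 and mt-Nd6), the translation factors Eef1a1 and Eef2, the ribosomal proteins Rplp1 and Rpl8, the iron store Fth1, the lysosomal protein Psap, the chaperone Hsp90ab1 and 2 features annotated as microRNA, Gm23935 and Mir6236. Those 2 features are 57 and 123 bases long against reads of 76 bases, so that a given number of reads gives a higher TPM than in a long gene. They had 4449 to 17786 and 6041 to 21984 reads per ovary, and their TPM values are not comparable with those of full-length genes. The 10 genes of highest mean took 10.5, 10.5 and 11.6% of all TPM. Both short features are among these 10 and were highest in ovary 3, Gm23935 at 10414, 8473 and 16009 TPM and Mir6236 at 6397, 5331 and 9170 TPM. The 1000 genes of highest mean took 56.8 ± 0.992% (SD, n = 3). Genes of the mitochondrial genome took 6.61, 6.32 and 6.99%, although 6 of its 13 protein-coding genes were listed at 0 in every ovary, and the cytosolic ribosomal proteins took 7.80, 7.87 and 6.62%. Ribosomal proteins were thus lower in ovary 3 than in both other ovaries in sum.

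Each ovarian compartment was measured by a list of its known genes, and the share of TPM on a list was summed in each ovary. Steroid synthesis took the largest share of the 19 lists, with 3.19, 3.56 and 3.59% of TPM on 22 genes (3.45 ± 0.227%, SD, n = 3), and Hsd3b1 alone made up 49.0% of it. This list includes 3 genes of steroid inactivation, Akr1c18 among them, which summed to 1776, 3492 and 7151 TPM. The closeness of the 3 shares therefore includes a rise in genes that do not make steroids. Stroma (30 genes, collagens and matrix proteins) took 0.774, 0.737 and 1.01%. Granulosa and follicle genes (21 genes) took 0.618, 0.923 and 0.513%, of which Inha made up 55.1%. Immune genes (36 genes) took 0.582, 0.338 and 0.364%, and luteal genes (6 genes) took 0.286, 0.347 and 0.463%. Oocyte genes, although 45 in number, took 0.113, 0.127 and 0.0861%. The order of the shares, steroid first and oocyte last among the 5 compartments of steroid, stroma, granulosa, immune and oocyte genes, was the same in ovaries 1 and 3, whereas in ovary 2 the granulosa genes exceeded the stroma. That last order turned when shares were taken of reads (0.729% granulosa and 1.14% stroma in ovary 2) or without the top gene of each list (0.394 and 0.558% of TPM). Without the top genes the order in ovary 3 changed as well, with granulosa genes (0.232%) below immune genes (0.252%). Several mean shares also moved by over 1.5 times. Without its top gene the steroid share was 1.76%, the granulosa share 0.307% and the immune share 0.265%, and as a share of reads the immune genes took 0.181%, the oocyte genes 0.0704% and the stroma 1.28%. Lists differ in how many genes they hold, so a share describes the genes listed and not the number of cells, and fewer cells of a type and less RNA per cell cannot be told apart in bulk tissue.

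**Figure D1:**
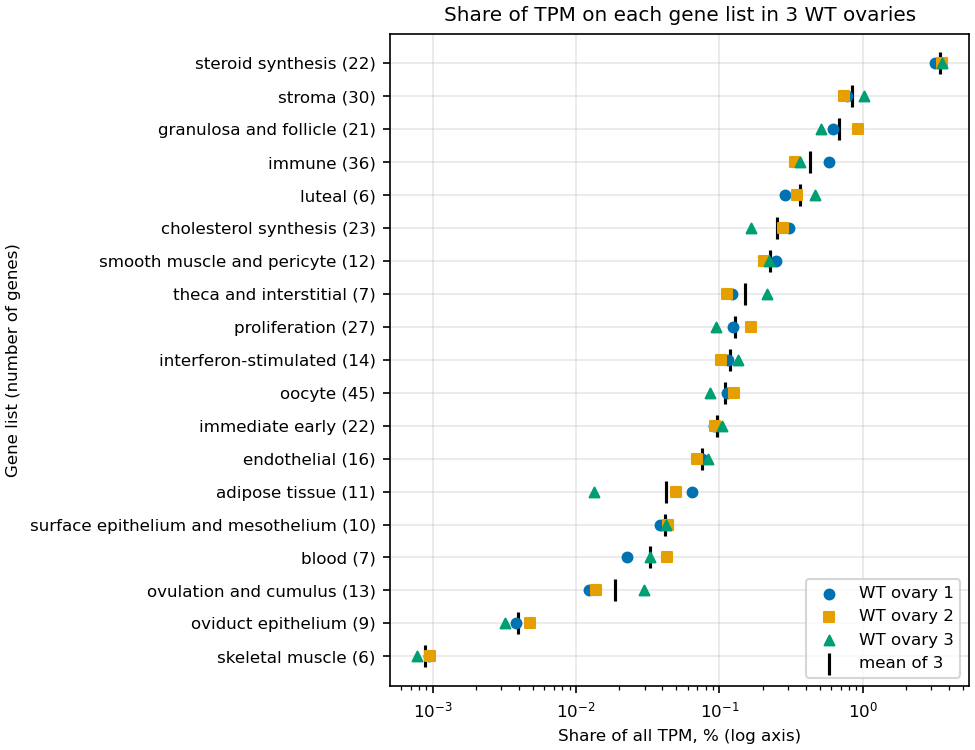
Share of all TPM (%, log axis) on each of 19 gene lists, with the number of genes in parentheses. Each point is 1 WT ovary and the black tick is the mean of 3. Steroid synthesis genes, which include 3 genes of steroid inactivation, lie between 3.19 and 3.59% in all 3 ovaries. Adipose tissue genes range from 0.0133% in ovary 3 to 0.0646% in ovary 1.

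The 3 ovaries were close for most genes. The median SD was 0.13 on the log2 scale, 90% of genes were below an SD of 0.36, and the counting error alone had a median SD of 0.03. Between the reads of 2 ovaries, where sampling alone gives a chi-square per degree of freedom near 1, it was 44 between ovaries 1 and 2, 174 between 1 and 3 and 145 between 2 and 3, so each ovary was counted as 1 sample. Between ovaries 1 and 2, 86 genes differed at least 2-fold on the log2(TPM + 1) scale (0.852% of those measured), against 248 between ovaries 1 and 3 and 257 between ovaries 2 and 3. An SD of at least 0.5 was reached by 457 of the 10095 genes, or 4.53%, and an SD of at least 1 by 54 genes, or 0.535%. The count rested most on ovary 3. Over ovaries 1 and 2 it was 184 genes (1.82%), over ovaries 2 and 3 it was 713 (7.06%), and over ovaries 1 and 3 it was 529 (5.24%). Of the 457 genes, ovary 3 stood apart from the other 2 on the low side in 190 (41.6%, against 35.4% of all genes) and on the high side in 126 (27.6%, against 17.3% of all genes). Ovary 1 stood apart in 50 on the high side (10.9%, against 12.8% of all genes) and 30 on the low side (6.56%, against 7.15%). Ovary 2 did so in 37 on the high side (8.10%, against 15.2%) and 24 on the low side (5.25%, against 12.1%). Ovary 3 was the most deeply sequenced, and its TPM was lower by a median of 0.08 on the log2 scale than the mean of the other two over all genes, by 0.13 in the longest of 3 length classes of genes and by 0.02 in the shortest. The part of this shift in the values below was not tested, and counts of genes highest or lowest in an ovary are therefore also given after median-of-ratios scaling where they change.

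**Figure D2:**
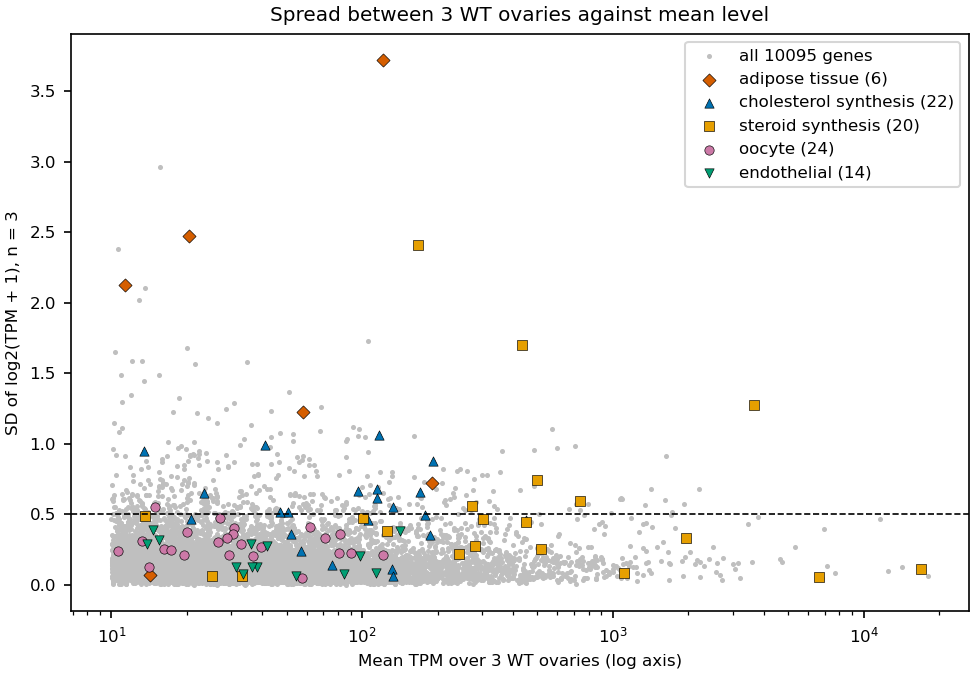
SD of log2(TPM + 1) over 3 WT ovaries against mean TPM (log axis) for all 10095 genes with a mean TPM of at least 10 (grey), with the tested genes of 5 lists marked. The dashed line is an SD of 0.5, which 4.53% of genes reached, including 5 of 6 adipose tissue genes, 12 of 22 cholesterol synthesis genes, 1 of 24 oocyte genes and 0 of 14 endothelial genes.

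Within the steroid pathway Cyp11a1, Fdx1 and Hsd3b1 were nearly equal between ovaries, while Cyp17a1, Hsd17b7 and Akr1c18 each had an SD above 1. Of the 22 genes, 20 had a mean TPM of at least 10 and 6 had an SD of at least 0.5 (against 4.53% of all genes), namely Cyp17a1, Hsd17b7, Akr1c18, Akr1c14, Scarb1 and Tspo. Over ovaries 1 and 2 the count was 3 (1.82% of all genes). Cyp11a1 had an SD of 0.06, Hsd3b1 of 0.11, and Fdx1, the ferredoxin that passes electrons to Cyp11a1, was at 1142, 1137 and 1032 TPM with an SD of 0.08. The electron donors Fdxr, at 491, 437 and 616 TPM, and Por, at 104, 107 and 167 TPM, were highest in ovary 3. The transcription factor Nr5a1, known as a regulator of steroidogenic genes, was at 213, 287 and 231 TPM. Each of these genes varied less than 2-fold.

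Cyp17a1, the hydroxylase and lyase through which androgens are made (ENSMUSG00000003555, chromosome 19 from 46667165 to 46672974), was at 200.4, 286 and 12.6 TPM, an SD of 2.41. Ovary 3 lay far below the other two, on 531 reads against 6447 and 5714. Hsd17b7, a steroid dehydrogenase that forms estradiol and also acts in cholesterol synthesis (chromosome 1 from 169949535 to 169969241), was at 749, 477 and 79.5 TPM, again lowest in ovary 3. Akr1c18, the enzyme that inactivates progesterone in the regressing corpus luteum (chromosome 13 from 4132615 to 4150654), ran the other way at 1175, 2849 and 6896 TPM, so that it alone took more TPM than Cyp11a1 in ovary 3 and less in ovaries 1 and 2. Its relative Akr1c14 was at 601, 643 and 255 TPM. Scarb1, the receptor that takes up cholesterol from lipoprotein, was at 982, 793 and 442 TPM, and Tspo, a protein of the outer mitochondrial membrane, was at 206, 209 and 407 TPM. Ovary 3 stood apart from the other two for Cyp17a1, Hsd17b7, Akr1c14, Scarb1 and Tspo, whereas Akr1c18 stepped up from ovary 1 to ovary 2 and again to ovary 3. Cyp19a1, the aromatase that makes estrogen in granulosa cells, was at 10.4, 19.6 and 10.6 TPM and Hsd17b1, which converts estrone to estradiol there, was at 364, 625 and 364 TPM, both highest in ovary 2.

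**Figure D3:**
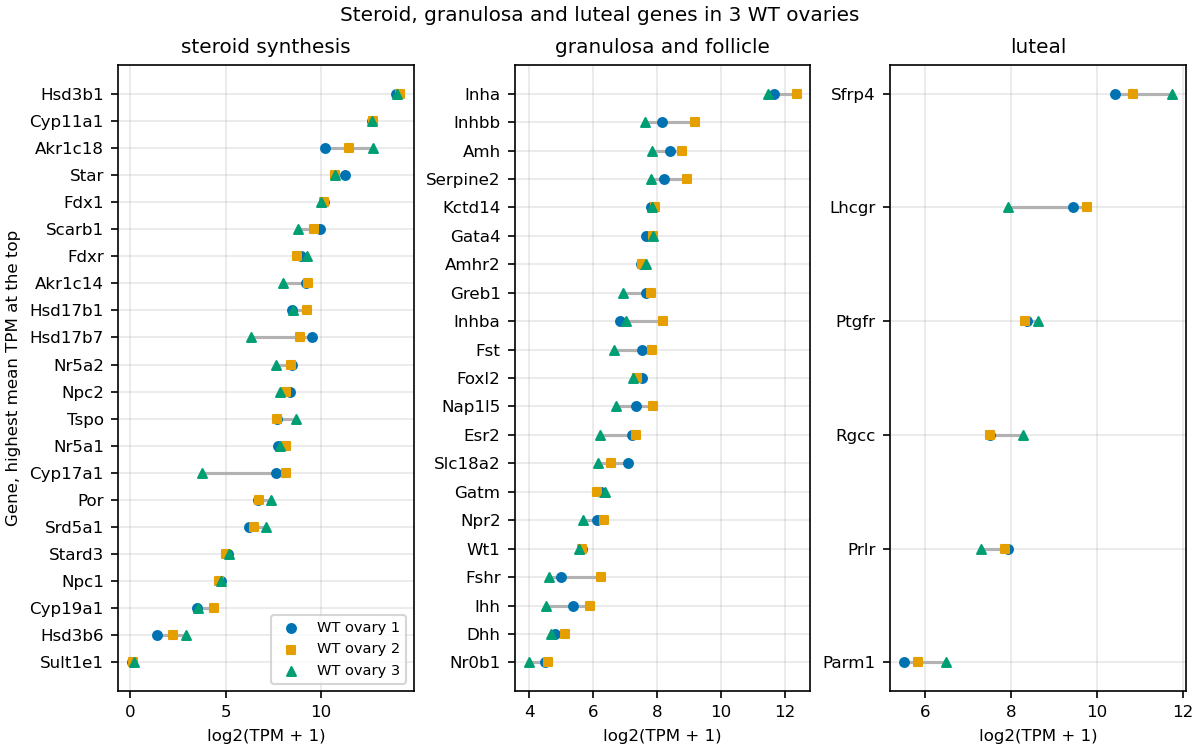
log2(TPM + 1) of every gene of the steroid synthesis (22 genes), granulosa and follicle (21 genes) and luteal (6 genes) lists in each of 3 WT ovaries, ordered by mean TPM, with a grey line from the lowest to the highest ovary. Hsd3b1 and Cyp11a1 overlap in the 3 ovaries, Cyp17a1 and Hsd17b7 are lowest in ovary 3, and most granulosa genes are highest in ovary 2.

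Of the 6 luteal genes, 4 were highest in ovary 3 (28.4% of all genes were, and 42.9% after median-of-ratios scaling), namely Sfrp4, Rgcc, Ptgfr and Parm1. Sfrp4, a secreted Wnt inhibitor known from the corpus luteum (chromosome 13 from 19623104 to 19632994), was at 1367, 1822 and 3431 TPM. Lhcgr, the receptor for luteinizing hormone (chromosome 17 from 88741549 to 88791976), was at 689, 865 and 244 TPM, highest in ovary 2 and lowest in ovary 3. Parm1 was at 44.7, 56.0 and 89.6 TPM, and Rgcc at 182, 182 and 309 TPM. Of the 6 luteal genes, 3 reached an SD of 0.5 (4.53% of all genes did), and 0 did over ovaries 1 and 2 (1.82% of all genes). Ptgfr, the receptor for the prostaglandin that ends luteal life, was at 332, 318 and 398 TPM, and Prlr, the prolactin receptor, was at 243, 230.3 and 158 TPM, so that these receptors differed less. Of 13 genes set off by the ovulatory surge of luteinizing hormone, 10 had a mean TPM below 10. Areg, a growth factor of the ovulatory follicle, was listed at 0, 0.625 and 0.169 TPM, Ptgs2, the cyclooxygenase needed for ovulation, was at 0.235, 0.142 and 0.459 TPM, and Pgr, the progesterone receptor, was at 0.993, 0.915 and 0.684 TPM. Has2, which makes the hyaluronan of the expanded cumulus, was at 0.54, 0.666 and 0.157 TPM. Edn2 had the largest SD of the list (1.20), at 1.52, 12.3 and 4.84 TPM on 33, 166 and 138 reads. It was highest in ovary 2, as was Tnfaip6 at 1.89, 3.62 and 2.85 TPM. Ereg, Btc and Snap25 were highest in ovary 3 and Ptx3 in ovary 1. The 3 with a mean TPM of at least 10 were all highest in ovary 3 (28.4% of all genes were, and 42.9% after median-of-ratios scaling). Of these 3, Adamts1 and Runx1 had an SD of at least 0.5 (4.53% of all genes did), and 0 did over ovaries 1 and 2 (1.82% of all genes). Adamts1, a matrix protease, was at 44.7, 57.2 and 190.3 TPM. Runx1, a transcription factor, was at 17.96, 17.3 and 38.9 TPM, and Cebpb, another, was at 49.0, 39.0 and 52.9 TPM. Insl3, a hormone of theca cells, was below 1 TPM in each ovary, at 0.432, 0.697 and 0.741 TPM. Mgarp, a mitochondrial protein of steroidogenic cells, was at 1058, 978 and 2009 TPM and made up 90.1% of the theca and interstitial list. Without Mgarp the list took 0.0164, 0.0154 and 0.0129% of TPM, lowest in ovary 3. Its genes Ptch1, Gli1, Hhip and Enpep were lowest in ovary 3, whereas Insl3, Mgarp and Nr2f2 were highest there.

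Granulosa and follicle genes were highest in ovary 2. Of the 21 genes, all with a mean TPM of at least 10, 16 were highest in ovary 2 (38.7% of all genes were) and 16 were lowest in ovary 3 (53.2% of all genes were, and 36.5% after median-of-ratios scaling, under which 15 of the 21 were highest in ovary 2 and 15 lowest in ovary 3). An SD of at least 0.5 was reached by 8 of 21 over the 3 ovaries (4.53% of all genes), by 5 without ovary 3 (1.82%), by 4 without ovary 2 (5.24%) and by 11 without ovary 1 (7.06%). Inhbb, the beta B subunit of inhibin and activin, was at 285, 583 and 195 TPM, and Inhba, the beta A subunit, was at 112, 287 and 128 TPM. Fshr, the receptor for follicle-stimulating hormone, was at 31.0, 75.5 and 23.6 TPM, the largest SD of the list (0.86). Amh, anti-Mullerian hormone of growing follicles, was at 340, 441 and 228 TPM. For each of these genes ovary 2 was above both others, and the other two ovaries were closer to each other than to it for Inha, Inhba, Inhbb and Fshr. Foxl2, the transcription factor that maintains granulosa identity, differed little, at 183, 164 and 152 TPM, as did Gata4 at 200.3, 233 and 235 TPM, Wt1 at 48.9, 49.6 and 45.5 TPM and Amhr2, the receptor for anti-Mullerian hormone, at 181, 183 and 200.3 TPM. Nr0b1, the remaining transcription factor of the list, was at 21.4, 22.8 and 14.7 TPM (SD 0.32). The 4 granulosa transcription factors had 0 members at an SD of 0.5, against 3 of the 5 hormone and binding protein genes and 2 of the 4 receptors. With 4.53% of all genes at that SD, 0 of 4 is near the share of all genes and does not show these factors to be steadier than other genes.

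Genes of cell division were highest in ovary 2. All 26 proliferation genes with a mean TPM of at least 10 were highest in ovary 2 (38.7% of all genes were) and 25 were lowest in ovary 3 (53.2% of all genes were), with the same counts after median-of-ratios scaling, under which the shares of all genes were 35.4 and 36.5%. Top2a, the topoisomerase of dividing cells, was at 70.2, 108 and 46.9 TPM, and Mki67, the Ki67 antigen, was at 51.1, 73.5 and 33.3 TPM. Bub1, a kinase of the spindle checkpoint, was at 23.6, 37.0 and 15.2 TPM with the largest SD of the list (0.62). The differences were moderate, since 5 of 26 genes reached an SD of 0.5 against 4.53% of all genes (0 without ovary 2 or without ovary 3, against 5.24 and 1.82%, and 19 without ovary 1, against 7.06%), and their direction was shared by the list. Median deviations from the mean of the other two ovaries were -0.01, 0.65 and -0.62 on the log2 scale.

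Oocyte genes had a median SD of 0.28 over 24 genes, against 0.47 for granulosa and follicle genes and 0.13 for all genes. An SD of 0.5 or more was reached by 1 of the 24 (4.17%, against 4.53% of all genes), Rfpl4, at 17.4, 18.5 and 8.79 TPM, and the count was 0 without ovary 3, 2 without ovary 2 and 6 without ovary 1 (1.82, 5.24 and 7.06% of all genes). Of the 45 oocyte genes, 21 had a mean TPM below 10. The small differences still had an order, since 22 of 24 were highest in ovary 2 (38.7% of all genes were) and 24 of 24 were lowest in ovary 3 (53.2% of all genes were, and 23 of 24 against 36.5% after median-of-ratios scaling), with a median of -0.47 on the log2 scale for ovary 3. The zona pellucida genes Zp1, at 34.3, 38.4 and 25.7 TPM, and Zp2, at 84.8, 91.4 and 67.2 TPM, kept the order of Zp3. The oocyte growth factors Gdf9, at 83.0, 101 and 60.9 TPM, and Bmp15, at 32.5, 31.4 and 17.6 TPM, act on the surrounding granulosa cells. Padi6, a protein of the cytoplasmic lattices of the egg, had the highest mean TPM of the list at 126, 134 and 102 TPM, and Tle6 of the subcortical maternal complex was the steadiest at 58.6, 58.8 and 55.04 TPM. Of the 6 oocyte transcription factors 1, Nobox, had a mean TPM of at least 10, at 14.2, 15.6 and 10.05 TPM.

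**Figure D4:**
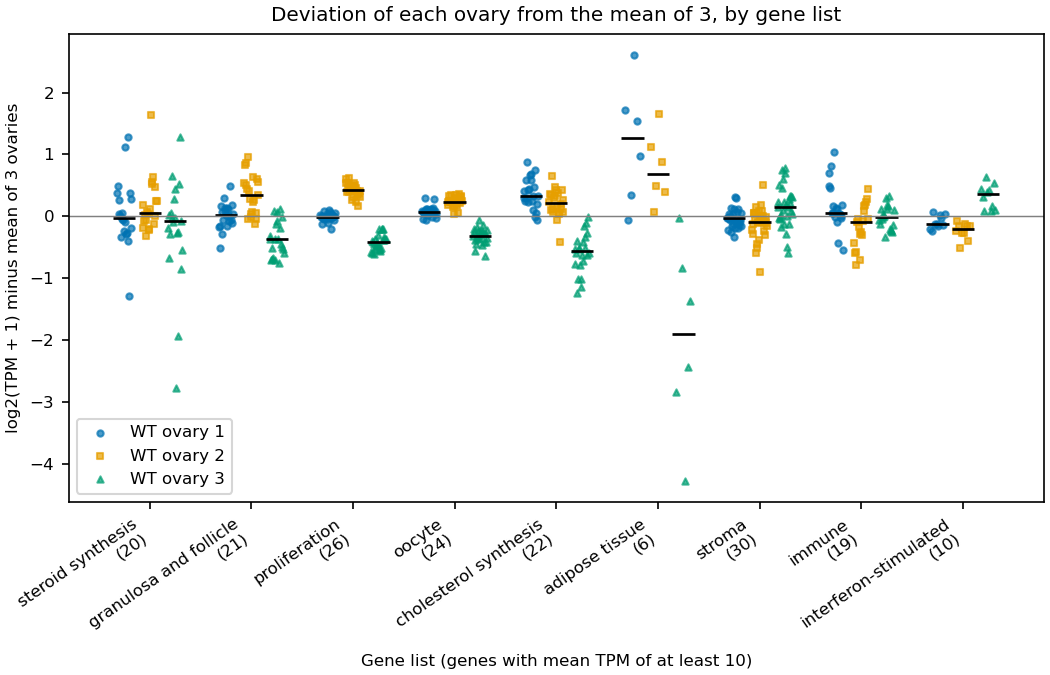
Deviation of each WT ovary from the mean of 3, in log2(TPM + 1), for the genes of 9 lists with a mean TPM of at least 10 (number in parentheses). Each point is 1 gene in 1 ovary and black bars are medians. Proliferation genes are highest in ovary 2 for 26 of 26 (38.7% of all genes). Cholesterol synthesis genes are lowest in ovary 3 for 20 of 22 (53.2% of all genes). Interferon-stimulated genes are highest in ovary 3 for 10 of 10 (28.4% of all genes). After median-of-ratios scaling these shares of all genes are 35.4, 36.5 and 42.9%.

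Genes of cholesterol synthesis, which feeds the steroid pathway, were the pathway list with the most variable members. Of 23 genes, 22 had a mean TPM of at least 10, and 12 of these (54.5%) had an SD of at least 0.5 against 4.53% of all genes. Over ovaries 1 and 2 the count was 3 (1.82% of all genes). Ovary 3 was lowest for 20 of 22 genes (53.2% of all genes were), or 19 against 36.5% after median-of-ratios scaling, with a median of -0.84 on the log2 scale from the mean of the other two, and ovary 1 was highest for 14 (32.9% of all genes were). Mvd, the decarboxylase that ends the mevalonate steps, was at 151, 158 and 42.3 TPM, the largest SD of the list (1.07). Lss, the cyclase that forms lanosterol, was at 57.7, 50.0 and 15.7 TPM, and Cyp51, the lanosterol demethylase, was at 259, 231 and 84.6 TPM. Sqle, the squalene epoxidase, was at 147, 136 and 62.2 TPM, and Idi1, the isomerase of the isoprene unit, at 22.4, 12.9 and 5.34 TPM. In each of these enzymes ovaries 1 and 2 lay together above ovary 3 or, for Idi1, stepped down from ovary 1 to ovary 3. Dhcr7, which makes the last bond change to cholesterol, had another order at 268, 118 and 125 TPM. Srebf2, the transcription factor known to drive these enzymes, differed little at 126, 139 and 132 TPM. Of the 6 adipose tissue genes described below, 5 were also lowest in ovary 3, and their part in these values was not tested.

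Promoter sequence is shown for the cholesterol synthesis and proliferation lists, chosen after the values and the motif counts were seen. Most of their genes were lowest in ovary 3, as were most oocyte and granulosa genes. RefSeq (GRCm38.p6) gave a window from 250 bases before to 50 after the start for 15 of the 23 cholesterol synthesis genes, and CCAAT, read on both strands, was in 15 of 15 of them and in 20 of the 23 proliferation windows. It was in 41.1% of the promoters of all 27025 genes with a window and in 43.1% of those of genes with a mean TPM of at least 10, in 10 of 15 for steroid synthesis, 5 of 16 for granulosa and follicle and 16 of 33 for oocyte genes. This motif was chosen after the values were seen, and a gene with several windows counts if any window holds it. TATAAA was in 0 of 15 cholesterol synthesis and 0 of 23 proliferation windows against 15.7% of all and 8.33% of genes with a mean TPM of at least 10, in 2 of 15 for steroid synthesis, 3 of 16 for granulosa and follicle, 4 of 10 for ovulation and cumulus and 4 of 33 for oocyte genes. Among steroid synthesis windows, CAAGGTCA, a form of the Nr5a1 element, was in 0 of 15 (1.76% of all and 1.27% of genes with a mean TPM of at least 10), TGACGTCA, the cyclic AMP response element, in 0 of 15 (2.03 and 3.60%), and TAATTG in 3 of 15 (9.22 and 5.57%). A match is a run of letters and not a bound site. The 250 bases before the start are printed 5′ to 3′ on the gene's strand for the 4 cholesterol synthesis genes and the 2 proliferation genes of largest SD that hold the motif there, with CCAAT or its reverse complement ATTGG in capitals. They are Mvd (chr8:122443423-122443672, minus strand), Lss (chr10:76531355-76531604, plus strand), Idi1 (chr13:8885356-8885605, plus strand), Cyp51 (chr5:4104698-4104947, minus strand), Bub1 (chr2:127831860-127832109, minus strand) and Top2a (chr11:99024190-99024439, minus strand).
Mvd: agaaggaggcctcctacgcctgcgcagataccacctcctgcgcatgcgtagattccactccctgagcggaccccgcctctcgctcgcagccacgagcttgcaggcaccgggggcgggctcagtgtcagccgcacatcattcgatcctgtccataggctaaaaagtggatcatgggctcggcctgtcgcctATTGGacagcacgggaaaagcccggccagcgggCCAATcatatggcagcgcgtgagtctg
Lss: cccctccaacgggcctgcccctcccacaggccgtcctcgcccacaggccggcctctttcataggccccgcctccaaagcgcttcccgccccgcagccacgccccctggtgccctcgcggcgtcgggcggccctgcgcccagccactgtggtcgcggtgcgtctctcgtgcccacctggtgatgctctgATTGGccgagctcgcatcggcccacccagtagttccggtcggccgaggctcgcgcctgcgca
Idi1: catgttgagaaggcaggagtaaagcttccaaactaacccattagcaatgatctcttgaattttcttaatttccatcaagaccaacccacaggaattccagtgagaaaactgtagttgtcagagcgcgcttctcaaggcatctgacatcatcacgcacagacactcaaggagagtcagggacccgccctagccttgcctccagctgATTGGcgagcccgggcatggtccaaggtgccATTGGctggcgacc
Cyp51: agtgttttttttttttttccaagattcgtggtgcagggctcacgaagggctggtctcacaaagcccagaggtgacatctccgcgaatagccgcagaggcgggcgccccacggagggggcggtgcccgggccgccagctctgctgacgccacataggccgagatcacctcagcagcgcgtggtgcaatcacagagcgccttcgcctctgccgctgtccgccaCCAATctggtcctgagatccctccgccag
Bub1: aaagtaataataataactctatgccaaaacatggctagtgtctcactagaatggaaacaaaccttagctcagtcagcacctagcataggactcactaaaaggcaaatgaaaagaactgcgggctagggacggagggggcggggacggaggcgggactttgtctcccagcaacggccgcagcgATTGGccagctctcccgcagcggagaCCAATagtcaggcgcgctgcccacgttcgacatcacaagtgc
Top2a: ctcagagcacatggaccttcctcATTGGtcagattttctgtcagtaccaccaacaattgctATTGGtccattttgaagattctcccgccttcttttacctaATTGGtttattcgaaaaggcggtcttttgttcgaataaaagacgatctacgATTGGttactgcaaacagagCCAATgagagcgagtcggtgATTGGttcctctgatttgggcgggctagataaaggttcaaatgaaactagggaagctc
In Mvd, Lss, Cyp51, Idi1 and Bub1 the capitals lie within the last 70 bases before the start, and in Top2a they recur 6 times along the window.

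Adipocyte genes gave the widest spread of any list. Of 11 genes 6 had a mean TPM of at least 10, 5 of these had an SD of at least 0.5 and 4 of at least 1 (4.53 and 0.535% of all genes did), and over ovaries 1 and 2 the first count was 1 (1.82% of all genes). Cfd, the complement protease secreted by fat cells (ENSMUSG00000061780, chromosome 10 from 79890853 to 79892655), had the largest SD of all 10095 genes (3.72), at 239, 124 and 1.06 TPM on 3279, 1051 and 19 reads. Adipoq, the hormone adiponectin, was at 36.6, 23.8 and 0.594 TPM, Retn, the hormone resistin, at 20.8, 12.8 and 0.39 TPM, and Car3, a carbonic anhydrase abundant in fat, at 94.3, 62.3 and 17.6 TPM. Cfd, Adipoq and Retn were near 0 in ovary 3, and Car3 was lowest there on 985 reads. Plin1, a coat protein of lipid droplets, did not share that pattern at 13.7, 15.1 and 14.0 TPM, and Plin4, another such protein, was lowest in ovary 3 by a smaller margin at 225, 248 and 98.7 TPM. The summed list was 646, 495 and 133 TPM, and Lep, the hormone leptin, was listed at 1.45, 0.55 and 0 TPM.

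A subset of macrophage genes was highest in ovary 1. Lyz2, the lysozyme of macrophages and neutrophils (chromosome 10 from 117277331 to 117282321), was at 2905, 871 and 1123 TPM and made up 38.1% of the immune list. Cd68, a lysosomal protein of macrophages, was at 210, 68.6 and 115 TPM, and Tyrobp, a signaling adaptor of myeloid cells, was at 351, 143 and 198 TPM. Ovary 1 was above both others for these genes. Gpnmb, a lysosomal glycoprotein of lipid-laden macrophages, was at 254, 27.9 and 35.4 TPM, Mmp12, the macrophage elastase, at 81.1, 11.6 and 11.1 TPM, and Atp6v0d2, a proton pump subunit, at 90.6, 20.5 and 19.2 TPM, all 3 among the 30 most variable genes. The general macrophage markers did not share the difference, with Csf1r, the receptor for the macrophage growth factor, at 38.9, 36.2 and 37.2 TPM, Adgre1, the F4/80 antigen, at 28.9, 26.2 and 28.6 TPM and Mrc1 at 17.8, 17.9 and 21.6 TPM. The complement genes C1qa, at 231, 189 and 284 TPM, and C1qc, at 158, 119 and 166 TPM, were highest in ovary 3 and C1qb, at 348, 264 and 341 TPM, in ovary 1, and the chemokine receptor Cx3cr1, at 11.0, 16.2 and 19.2 TPM, was highest in ovary 3. Of the list, 2 of the 10 macrophage and monocyte genes reached an SD of 0.5 (4.53% of all genes did). Of these 10 genes, 6 were highest in ovary 1 as deposited (32.9% of all genes were). After median-of-ratios scaling 3 were (21.7% of all genes), so that no order of the list as a whole is given. Lowest in ovary 2 were 8 of the 10 under both (27.7% of all genes as deposited and 31.0% after scaling). Genes that present antigen on MHC class II kept another order, with Cd74, the invariant chain, at 503, 554 and 426 TPM and all 4 highest in ovary 2 (38.7% of all genes were, and 35.4% after median-of-ratios scaling). T and B cells were scarce in RNA, with Cd3e at 0.809, 0.772 and 0.666 TPM and Cd79a at 0.971, 2.24 and 1.69 TPM, whereas Igkc, the immunoglobulin kappa constant gene, was at 50.9, 102 and 80.3 TPM. Of the 36 immune genes 19 had a mean TPM of at least 10, and 5 of these had an SD of at least 0.5 (4.53% of all genes did). The count was 1 without ovary 1, 4 without ovary 2 and 6 without ovary 3 (7.06, 5.24 and 1.82% of all genes).

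Several matrix proteins of the stroma varied between ovaries. Of 30 stroma genes 6 reached an SD of 0.5 against 4.53% of all genes (2 over ovaries 1 and 2, against 1.82%), all of them noncollagen matrix genes, and 18 of 30 were highest in ovary 3 (28.4% of all genes were), or 23 after median-of-ratios scaling, which moved the background to 42.9%. Lum, the proteoglycan lumican, was at 260.3, 218 and 522 TPM, Mgp, an inhibitor of calcification, at 797, 775 and 1641 TPM, and Dpt, dermatopontin, at 28.4, 13.7 and 45.6 TPM. Vcan, the proteoglycan versican, ran the other way at 59.6, 81.0 and 37.2 TPM. Basement membrane collagens did not share this, with Col4a1 at 517, 548 and 517 TPM, and Sparc, the gene of highest mean on the list, was at 1771, 1783 and 2263 TPM. None of the 11 smooth muscle and pericyte genes, the 14 endothelial genes or the 8 surface epithelium and mesothelium genes tested reached an SD of 0.5 over the 3 ovaries, where the share of all genes (4.53%) would give fewer than 1 gene a list, and their median SDs were 0.17, 0.17 and 0.10 against 0.13 for all genes and 0.20 for the stroma. Acta2, smooth muscle actin, was at 1327, 1136 and 1143 TPM, Pecam1, an adhesion molecule of endothelium, at 56.7, 54.4 and 51.8 TPM, and Krt19, a keratin of the surface epithelium, at 66.4, 71.7 and 74.3 TPM.

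The 30 genes of largest SD were a mixed set, of which 7 were on a list, namely Cyp17a1, Hsd17b7, Akr1c18, Cfd, Adipoq, Retn and Car3. Ovary 3 stood apart on the low side in 17 of the 30 (35.4% of all genes) and on the high side in 4 (17.3% of all genes). After Cfd the next was S100g, the vitamin D dependent calcium-binding protein, which had 0, 203 and 9 reads and 0, 45.9 and 0.962 TPM, present in number only in ovary 2. Ces2a, a carboxylesterase, was also highest there at 8.71, 31.2 and 0.761 TPM, as were the immunoglobulin lambda genes Iglv1 at 4.31, 28.9 and 2.89 TPM and Iglc1 at 7.71, 50.7 and 6.21 TPM. Adcyap1, the neuropeptide PACAP, was at 1.26, 3.90 and 33.3 TPM, and Cpxm2, a carboxypeptidase-like protein, at 10.8, 16.7 and 64.5 TPM, both highest in ovary 3 together with Klhl30, at 6.02, 3.58 and 26.3 TPM, and Gm12248, at 2.30, 6.09 and 24.4 TPM. Genes lowest in ovary 3 included Kcnj16, a potassium channel, at 14.6, 15.3 and 1.19 TPM, Rgs13, a regulator of G protein signaling, at 21.4, 22.2 and 2.82 TPM, Cited1, a transcriptional coactivator, at 84.5, 55.6 and 13.0 TPM, Mmel1, a membrane peptidase, at 107, 78.3 and 19.9 TPM, and Clic3, a chloride channel protein, at 42.5, 35.7 and 8.01 TPM. Apof, an apolipoprotein, stepped down at 27.5, 10.01 and 2.16 TPM, as did Saa3, an acute phase protein, at 33.4, 13.9 and 5.28 TPM, and Bpifb6 at 34.8, 16.2 and 4.77 TPM. Rem2, a small GTPase, was lowest in ovary 1 at 2.45, 13.6 and 16.96 TPM. The transcripts AC140375.1 at 38.3, 18.5 and 3.03 TPM and AC116503.1 at 14.9, 23.03 and 2.58 TPM are not annotated as protein-coding, and Mir351 rested on 37, 0 and 13 reads.

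The 30th gene, Car3, had an SD of 1.22 and the first gene left out, Chek1, had one that rounds to the same value (1.22), so the edge of this group is arbitrary. At the other end, the 5 steadiest genes were Cox19, an assembly factor of cytochrome c oxidase, at 21.3, 21.4 and 21.3 TPM, Ap3b1, an adaptor of vesicle transport, at 86.2, 86.2 and 86.4 TPM, Etnk2, Plpp5 and Hmga1, each with an SD below 0.01. The SD of all 5 was below their counting SD (0.02 to 0.07), so their rank is not resolved at this depth.

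**Figure D5:**
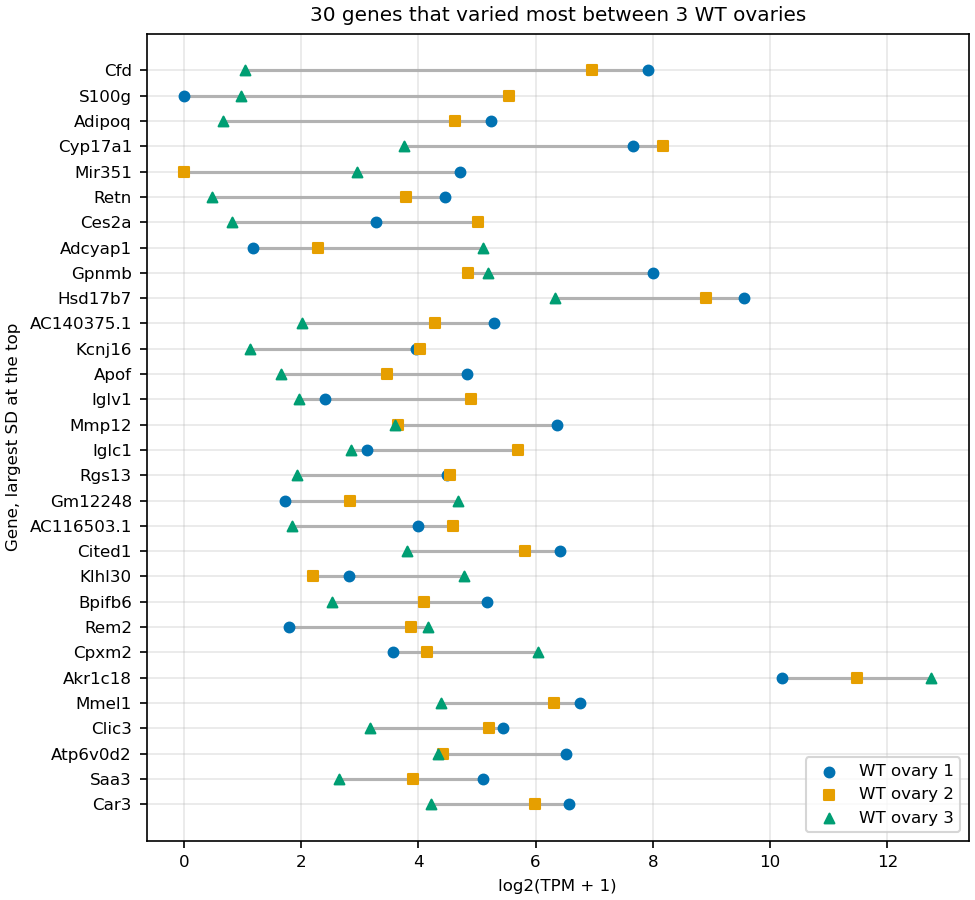
log2(TPM + 1) of the 30 genes with the largest SD between 3 WT ovaries, largest at the top, among genes with a mean TPM of at least 10. Each point is 1 ovary and the grey line spans the 3. Ovary 3 (green triangles) stands apart on the low side in 17 of the 30 (35.4% of all 10095 genes), and Akr1c18, with 1175, 2849 and 6896 TPM, is the only one of them above 1000 TPM in every ovary.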

How the data were processed

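Poly(A)-selected RNA of 3 WT ovaries was sequenced from 1 end at 76 bp. The submitters' processing notes name FastQC 0.11.5, Trimmomatic 0.36, STAR 2.5.3a, featureCounts 1.6.3 and mm10/GRCm38, whereas the protocol text in the labels names a human build, HTSeq and RPKM. The authors deposited TPM values per gene, unpooled, in 1 table with identifiers and lengths, and 99.8% of identifiers are in GENCODE M21. Columns of the MP tumors were not analysed here, and 0 columns belonged to other samples.

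Reads per gene were worked back from TPM multiplied by gene length, taking the smallest step as 1 read (100% of values whole within 0.001). The SD (n - 1) of log2(TPM + 1) was computed over the 3 ovaries for genes whose mean TPM was 10 or more, and SDs of at least 0.5 were counted. A gene was highest or lowest in an ovary by its TPM. Counting SD was the Poisson error of the reads. The 337 genes of 19 lists, their roles and the members shown were chosen with earlier results of these data known. Genes named were the 20 of highest mean TPM, the 30 of largest and 5 of smallest SD, and genes of the lists (up to 5 of highest mean and 3 of largest SD in each, and any of the steroid, granulosa, luteal and ovulation lists). List genes outside this rule (among them Csf1r, Adgre1, Mrc1, Cd3e, Cd79a, Srebf2, Sqle, Mki67, Foxj1, Nobox, Tle6, C1qa, C1qc, Cx3cr1 and Pecam1) were named after their values were seen. Reads of paralogs and pseudogenes (Hsd3b1 and Hsd3b6, Lyz2, hemoglobins, immunoglobulins, ribosomal proteins) may be split by the counting, and the strand setting of the counting is not given in the sources used here. Depth was 31445004 to 64013840 reads per ovary, and the Poisson errors cover counting error only. Alternatives changed the pseudocount, the filter, the scaling, the total and the ovaries used. The code was tested on simulated data. Python 3.11.15, pandas 2.3.3, numpy 2.4.6 and matplotlib 3.10.9 were used.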

Additional observations from a re-analysis of the deposited data

How the results depend on the processing

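TPM is scaled to a fixed total, so a share falls when other genes rise, and 3 ovaries give a rough SD. The share of the steroid synthesis genes (3.45%) was 2.90% as a share of reads, 3.69% without the mitochondrial genes in the total and 1.76% without Hsd3b1. Without its gene of highest mean TPM, the granulosa share (0.685%) was 0.307%, the stroma share (0.841%) 0.647% and the immune share (0.428%) 0.265%. As a share of reads, which favors long genes, the oocyte share (0.108%) was 0.0704%, stroma 1.28% and immune 0.181%. The count of 457 variable genes was 1211 of 15622 genes at a mean TPM of at least 1, 1785 of 29169 with no filter and 174 of 3895 at a mean TPM of at least 50, where the number of genes measured changed by construction. It ranged from 184 without ovary 3 to 713 without ovary 1. It was 512 with a pseudocount of 0.1, 317 with 5, 446 with median-of-ratios scaling, 449 with the counting variance subtracted and 423 in protein-coding genes. Of the 30 most variable genes, 28, 25 and 29 stayed among the 30 with a pseudocount of 0.1, of 5 and with median-of-ratios scaling, and 21, 25 and 9 without ovary 1, 2 and 3. The SD was also followed in 81 genes, these 30 and the list genes with an SD of at least 0.5. It moved by over 1.5 times in 12, 11 and 53 of them without ovary 1, 2 and 3. Counts of protein-coding genes, orders after other scalings and CCAAT were added after seeing the data. No paired analysis was possible because 1 group was described and no test was made.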

Other observations

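The 10 interferon-stimulated genes with a mean TPM of at least 10 were all highest in ovary 3, as deposited (28.4% of all genes were) and after median-of-ratios scaling (42.9% of all genes were), with Ifit3 at 13.2, 9.83 and 22.9 TPM, Isg15 at 27.2, 26.6 and 43.5 TPM and Ifi27l2a at 171, 144 and 275 TPM in ovaries 1, 2 and 3. Of these, 1 of 10 reached an SD of 0.5 (4.53% of all genes), 2 without ovary 1, 1 without ovary 2 and 0 without ovary 3 (7.06, 5.24 and 1.82% of all genes). Immediate early genes, which respond quickly to stimulation, were similar in sum at 0.0910, 0.0934 and 0.104% of TPM. Fos was at 21.9, 17.6 and 8.11 TPM, Jun at 81.8, 100.3 and 138 TPM and Myc at 127, 126 and 129 TPM. Hemoglobin genes were highest in ovary 2 for 4 of 4 (38.7% of all genes were), with Hbb-bs at 144, 278 and 199 TPM.

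Several variable genes outside the lists were picked out after their values were seen. Timp1, an inhibitor of metalloproteinases, was at 203, 875 and 635 TPM, and Cdkn1a, the cell cycle inhibitor p21, was at 35.05, 111 and 142 TPM, both lowest in ovary 1. Ctss, a lysosomal protease of antigen-presenting cells, was at 877, 248 and 323 TPM, Lgals3, galectin of macrophages, at 399.5, 157 and 272 TPM, and Trem2, a lipid receptor of macrophages, at 27.4, 8.91 and 18.3 TPM, each highest in ovary 1. Fabp4, the fatty acid carrier of fat cells and macrophages, was at 32.1, 19.6 and 7.82 TPM.

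Of the 13 protein-coding genes of the mitochondrial genome, 6 (mt-Co2, mt-Co3, mt-Atp6, mt-Atp8, mt-Nd3 and mt-Nd4l) were listed at 0 in all 3 ovaries while the other 7 were among the 20 genes of highest mean TPM. The share of TPM on the mitochondrial genome given above is therefore that of the genes listed above 0.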
